A study of Oryctolagus cuniculus with 30 samples.

Results

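Wounded rabbit ear epidermis was compared between the moment of closure and 3 days of open air. The comparison took all 6 arrays titled as wound at day 0 and all 6 titled as non-occluded wound at day 3, which is 12 of the 30 samples of the series, and all non-control probes. The animals, all female, were rabbits of the New Zealand White breed. Grids of shallow incisions were cut in the ear with paired blades 1 mm apart. Both ears then carried 1 layer of Tegaderm, a clear adhesive film dressing, until new epidermis covered the wound 2 days later, which is day 0. From day 0 the right ear was left bare and the left ear received 4 further layers. The day 3 group therefore differs from the day 0 group both in time and in the loss of the film, and these cannot be told apart within this comparison. Covered wounds at day 3 (5 arrays), uncovered and covered wounds at day 5 (6 and 5 arrays) and unwounded skin (2 arrays) are used below as levels set beside the 2 groups. Their arrays also enter the estimate of spread.

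The epidermis is a stratified sheet of keratinocytes whose outer cornified layers hold water in. After a cut, keratinocytes at the edge flatten, migrate and divide until the gap is closed, and then stratify again and rebuild the barrier. A film over the skin slows water loss, and the study asked how the hydration state acts on inflammatory gene expression in these cells.

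Epidermis was separated from dermis by a 30 min incubation in 0.5 M ammonium thiocyanate, and labelling started from 400 ng of total RNA. Each sample was read on 1 Agilent array with 1 colour and probes of 60 bases. No label ties an array to an animal. The p-values thus reflect the spread between samples alone, and both ears of an animal may be present in different groups. That spread was estimated per probe over all 30 arrays, so it also carries the spread within groups outside the comparison. On the 12 arrays 39.7% to 47.7% of the 23369 probes were well above background, a flag of the scanner software. Over the tested probes, pairs of arrays had r from 0.944 to 0.988 within day 3, from 0.929 to 0.982 within day 0 and from 0.898 to 0.969 between the groups. The array files describe each probe as unknown and name only the contig or clone it was designed from. Probes are therefore reported by their names and sequences, no gene name or genome position was used here, and the label epidermis was not checked against marker genes.

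The newly closed epidermis changed widely in its first 3 days without cover. Of the 12342 probes tested, 4402 (35.7%) were called, meaning an adjusted p under 0.05 in limma with Benjamini-Hochberg adjustment over all tested probes. Of these 2535 (20.5% of the tested probes) rose and 1867 (15.1%) fell. Rises reached further than falls. A rise of at least 2-fold was called for 1235 probes (10%) and a fall of that size for 599 (4.85%). At 4-fold or more there were 301 rises (2.44%) and 35 falls (0.284%), and at 8-fold or more 73 rises (0.591%) and 3 falls (0.0243%). The 6 day 3 arrays lay wholly above the 6 day 0 arrays for 977 probes (7.92%) and wholly below them for 678 (5.49%). A wide change was not particular to open air, since covered wounds at day 3 against the same day 0 arrays gave 5495 called probes (44.5%).

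**Figure D1:**
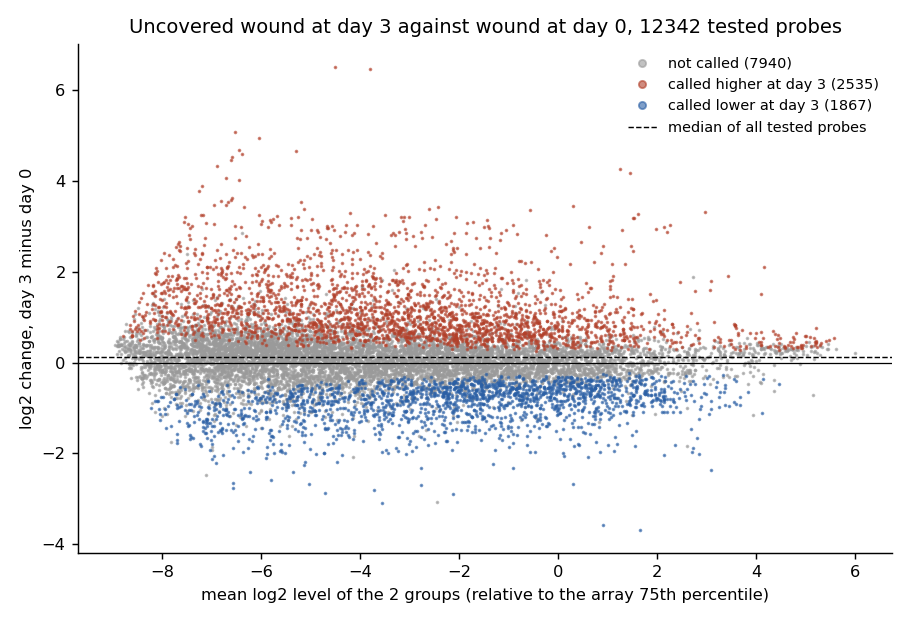
Each point is 1 of 12342 tested probes, with the mean log2 level of the 2 groups on the horizontal axis and the log2 change from day 0 to day 3 on the vertical axis. Red points are the 2535 probes called higher, blue points the 1867 called lower, and the dashed line is the median change of all tested probes, 0.13.

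The levels are log2 signals relative to the 75th percentile of each array, taken over probes well above background on all 30 arrays. On this scale the median change of all tested probes was 0.13. Relative to that median, 1021 rises and 794 falls reached 2-fold. The median change differed with the level, from 0.23 for mean levels up to -6 to -0.0006 for those above 0. A single shift therefore does not hold for all probes. The share of rises among all calls was 57.6%, and that share turned under other scalings. There were 1781 rises and 2427 falls when all probes entered the percentile, 1927 and 2284 with quantile normalization, 1964 and 2285 with normexp background correction before it, and 1935 and 2281 in the authors' deposited values. The excess of large rises held under each of these scalings. At 4-fold or more the counts were 235 rises and 68 falls with the percentile over all probes, 224 and 64 with quantile normalization, 99 and 15 with normexp, and 80 and 14 in the authors' values. At 8-fold or more, against 73 and 3, they were 47 and 5, 37 and 4, 12 and 2, and 12 and 2 under these 4 scalings.

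**Figure D2:**
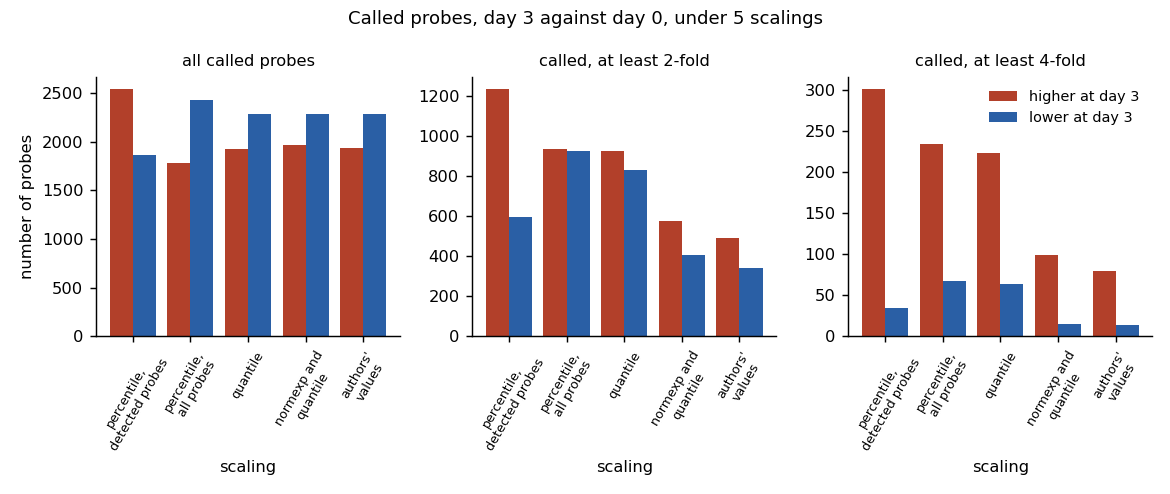
Bars give the number of probes called higher (red) and lower (blue) at day 3 under 5 scalings, in all, at 2-fold or more and at 4-fold or more. Among all calls rises lead only with the percentile over detected probes (2535 and 1867), while at 4-fold or more rises lead under all 5 scalings. At 2-fold or more the numbers are nearly equal with the percentile over all probes (938 and 927).

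The balance of rises and falls differed along the signal range. Among the 8221 tested probes well above background on all 12 arrays, 1766 were called higher and 1516 lower. At 2-fold or more these numbers were 669 and 384, and at 4-fold or more 118 and 17. Of the 1822 probes with a mean level above 0, 20.4% rose and 26.2% fell, whereas of the 2890 probes with a mean level up to -6, 17.2% rose and 6.78% fell. For 6258 probes (50.7%) the unadjusted 95% interval of the log2 change lay within -1 to 1, so a change beyond 2-fold lay outside that interval.

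The largest rise of a probe detected on all 12 arrays was that of UF_Ocu_AF_109724, of contig R4.sd.373.C1. The contig carries a second probe, UF_Ocu_AF_109723. Probes are printed 5′ to 3′ in lower case, as the array files give them. Capitals mark AATAAA, the hexamer that directs cleavage and polyadenylation near the 3′ end of many messenger RNAs. These 6 probes are printed because their 3 contigs were far higher in uncovered than in covered wounds.
UF_Ocu_AF_109724: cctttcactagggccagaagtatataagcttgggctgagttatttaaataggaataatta
UF_Ocu_AF_109723: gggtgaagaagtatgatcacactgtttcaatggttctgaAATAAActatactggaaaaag
UF_Ocu_AF_102421: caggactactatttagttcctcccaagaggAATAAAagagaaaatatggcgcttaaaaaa
UF_Ocu_AF_102422: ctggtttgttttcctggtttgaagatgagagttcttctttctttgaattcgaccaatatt
UF_Ocu_AF_113244: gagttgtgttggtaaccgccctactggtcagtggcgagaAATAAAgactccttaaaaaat
UF_Ocu_AF_113245: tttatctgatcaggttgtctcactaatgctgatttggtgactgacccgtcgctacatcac

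UF_Ocu_AF_109724 ran from -1.72 to 0.05 at day 0, with a median of -0.86, and from 2.65 to 3.99 at day 3, with a median of 3.34. The groups did not overlap, and the lowest day 3 array lay well above the highest day 0 array. The log2 change was 4.26 (SE 0.51, limma adjusted p = 3.72e-07), or 19.2-fold. UF_Ocu_AF_109723 rose by 4.17 (SE 0.51, limma adjusted p = 5.05e-07). All 6 day 0 arrays and neither unwounded array were well above background for UF_Ocu_AF_109724, and day 3 was at least 1038-fold higher than unwounded skin (limma adjusted p = 2.77e-10). In covered wounds at day 3, 2 of 5 arrays were well above background, and the mean was -6.02 ± 1.85 (SD, n = 5). For probes at background such a ratio sets each array of the dimmer group at its own signal or at its lowest signal of any probe well above background, whichever is higher. That lowest signal lay between -7.57 and -6.10 on the 12 arrays, and a named probe may have another limit.

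UF_Ocu_AF_102421, of contig R4.sd.851.C1, ran from -5.23 to -2.51 at day 0 (median -3.46) and from -1.07 to 0.07 at day 3 (median -0.48). All day 3 arrays were above all day 0 arrays, and the log2 change was 3.20 (SE 0.42, limma adjusted p = 1.23e-06). The second probe of the contig, UF_Ocu_AF_102422, rose by 2.97 (SE 0.41, limma adjusted p = 3.09e-06). At day 3, UF_Ocu_AF_102422 was well above background on 2 of 5 covered arrays, whereas UF_Ocu_AF_102421 was well above background on none of them and on neither unwounded array. Uncovered wounds were at least 73.4-fold higher than covered wounds (limma adjusted p = 3.55e-12) and at least 72.1-fold higher than unwounded skin (limma adjusted p = 6.42e-10).

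UF_Ocu_AF_113244, of contig R4.sd.301.C1, ran from -5.62 to -4.28 at day 0 (median -4.58) and from -2.55 to -0.58 at day 3 (median -1.62). The groups did not overlap, and the probe rose by 3.21 (SE 0.34, limma adjusted p = 7.8e-08). UF_Ocu_AF_113245 rose by 3.30 (SE 0.36, limma adjusted p = 1e-07), with 4 of 6 day 0 arrays well above background. At day 3, 1 of 5 covered arrays and neither unwounded array was well above background for UF_Ocu_AF_113244. With arrays at background set as described, uncovered wounds were 27.6-fold higher than covered wounds (limma adjusted p = 1.5e-10) and 31.2-fold higher than unwounded skin (limma adjusted p = 4.38e-08).

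None of these 3 contigs passed the test between day 3 and day 5 without cover. The day 5 minus day 3 difference was -0.66 for UF_Ocu_AF_109724 (SD at day 5 0.41, n = 6, limma adjusted p = 0.295). It was 0.34 for UF_Ocu_AF_102421 (limma adjusted p = 0.517) and -0.67 for UF_Ocu_AF_113244 (limma adjusted p = 0.11).

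A second set of strong rises was shared by both arms, with a smaller difference between them. The following probes are printed because they moved from day 0 to day 3 in uncovered and in covered wounds alike in direction. The first 4 also ended higher without cover, and the last 3 did not pass that test.
UF_Ocu_AF_113897: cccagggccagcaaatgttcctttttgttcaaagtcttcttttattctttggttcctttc
UF_Ocu_AF_103249: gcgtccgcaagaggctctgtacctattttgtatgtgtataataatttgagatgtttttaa
UF_Ocu_AF_104104: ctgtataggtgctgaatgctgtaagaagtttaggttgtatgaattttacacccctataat
UF_Ocu_AF_108097: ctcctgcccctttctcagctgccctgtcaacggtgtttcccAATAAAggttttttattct
UF_Ocu_AF_113899: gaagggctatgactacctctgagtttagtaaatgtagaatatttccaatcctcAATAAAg
UF_Ocu_AF_108658: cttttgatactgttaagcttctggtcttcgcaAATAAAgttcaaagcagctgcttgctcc
UF_Ocu_AF_113913: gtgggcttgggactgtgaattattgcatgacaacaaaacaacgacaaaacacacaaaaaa

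UF_Ocu_AF_113897, of contig R4Sub.43.C3, ran from -2.19 to -0.68 at day 0 (median -1.45) and from 1.35 to 3.16 at day 3 (median 1.88). The groups were well apart, and the rise was 3.44 (SE 0.42, limma adjusted p = 3.98e-07). Covered wounds rose by 1.84 (limma adjusted p = 0.001) from the same day 0 arrays, and the arms differed by -1.60 (SE 0.44, limma adjusted p = 0.0123). The second probe of the contig, UF_Ocu_AF_113898, rose by 3.35 (SE 0.50, limma adjusted p = 7.8e-06).

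UF_Ocu_AF_103249, of clone naf14g03.y1, went from between -0.54 and 0.58 (median -0.04) to between 2.72 and 3.93 (median 3.08). No arrays overlapped, and the rise was 3.27 (SE 0.35, limma adjusted p = 7.96e-08). It ended 1.60 above unwounded skin (limma adjusted p = 0.0314). Covered wounds rose by 1.98 (limma adjusted p = 6.69e-05) and lay 1.29 below uncovered wounds at day 3 (limma adjusted p = 0.0158).

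UF_Ocu_AF_104104, of contig R4.205.C1, went from between -5.91 and -3.33 (median -4.54) to between -2.02 and -0.69 (median -1.51), again without overlap. Its rise of 3.21 (SE 0.39, limma adjusted p = 5.05e-07) was followed by a fall of 1.30 to day 5 (limma adjusted p = 0.00984). It was 1.46 lower under cover than without it at day 3 (limma adjusted p = 0.0157). UF_Ocu_AF_108097, of contig R4.1730.C1, went from between -0.83 and 0.09 (median -0.28) to between 1.79 and 2.45 (median 2.02). The day 3 arrays lay close together and far above day 0, with a rise of 2.41 (SE 0.21, limma adjusted p = 1.34e-08). Covered wounds were 0.98 lower (limma adjusted p = 0.00287). The second probe of the contig, UF_Ocu_AF_108098, had 4 of 6 day 0 arrays well above background and rose by 3.01 (SE 0.33, limma adjusted p = 1.35e-07). Its difference between the arms, -0.48, did not pass the test (limma adjusted p = 0.409).

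UF_Ocu_AF_113899, of clone nbc43e12.x1, ran from -5.00 to -3.58 at day 0 (median -3.90) and from -1.78 to 0.18 at day 3 (median -0.70). The groups did not overlap. The rise was 3.43 (SE 0.34, limma adjusted p = 3.16e-08) without cover and 3.48 (limma adjusted p = 8.71e-09) with cover. The arms differed by 0.05 (SE 0.35, limma adjusted p = 0.957). Day 3 lay 0.25 above unwounded skin, with an unadjusted 95% interval from -0.72 to 1.23 (limma adjusted p = 0.737), and the level fell by 1.18 to day 5 (limma adjusted p = 0.00663).

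UF_Ocu_AF_108658, of contig R4.4151.C1, ran from 0.14 to 3.98 at day 0 (median 0.96) and from 4.47 to 4.76 at day 3 (median 4.59). The day 0 spread came mainly from replicate 4, at 3.98, while the day 3 arrays were nearly level. The rise was 3.32 (SE 0.54, limma adjusted p = 2.51e-05). Covered wounds at day 3 lay at 4.84 ± 0.17 (SD, n = 5) and unwounded skin at 4.86 ± 0.18 (SD, n = 2). By day 5 without cover the level had fallen by 2.17 (limma adjusted p = 0.00249). Its contig partner UF_Ocu_AF_108659 rose by 1.41 (SE 0.23, limma adjusted p = 2.44e-05) and differed by 0.09 between day 3 and day 5 (limma adjusted p = 0.749).

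The remaining rises among the 10 largest were UF_Ocu_AF_104437 of contig R4.sd.252.C1, with 3.39 (SE 0.40, limma adjusted p = 2.65e-07), and UF_Ocu_AF_108367 of contig R4.sd.803.C2, with 3.25 (SE 0.53, limma adjusted p = 2.55e-05). Neither overlapped between the groups. Their partners UF_Ocu_AF_104438 and UF_Ocu_AF_108366 rose by 2.74 (limma adjusted p = 1.14e-07) and 2.56 (limma adjusted p = 0.000228). The partners parted at day 5, where UF_Ocu_AF_104438 was a further 2.41 higher (limma adjusted p = 6.5e-07) while UF_Ocu_AF_104437 differed by 0.56 (limma adjusted p = 0.25).

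**Figure D3:**
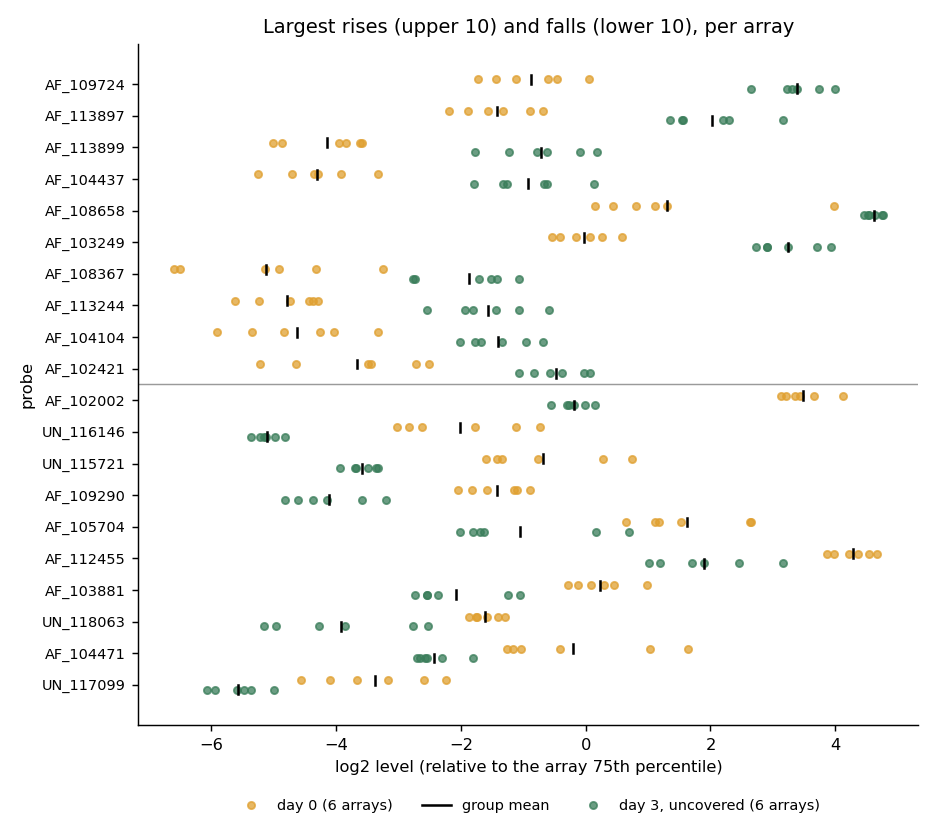
Log2 levels of the 10 largest rises and the 10 largest falls among called probes well above background on all 12 arrays, 1 per contig. Each orange dot is a day 0 array, each green dot an uncovered day 3 array and each black bar a group mean; names are shown without the shared prefix UF_Ocu_. The groups overlap for UF_Ocu_AF_105704 alone, and the day 0 array of UF_Ocu_AF_108658 at 3.98 stands apart from the other 5.

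Some transcripts came up from background. Of all tested probes, 23 were well above background on none of the 6 day 0 arrays and on all 6 day 3 arrays, and all 23 were called higher. They belong to 19 contigs, and with day 0 arrays set as described their ratios ran from at least 2.15-fold to at least 14.1-fold, with a median of 4.60. The opposite pattern, 6 of 6 arrays at day 0 and 0 of 6 at day 3, was seen for 8 probes, of which 7 were called lower by at least 1.48-fold to at least 2.40-fold.

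UF_Ocu_AF_113913, of contig R4.sd.893.C2, led the probes that came up from background. Its signal ran from -8.59 to -7.14 at day 0 (median -7.24) and from -3.72 to -2.64 at day 3 (median -2.78). No day 0 array was well above background, and day 3 was at least 14.1-fold higher (limma adjusted p = 6.98e-10). Covered wounds lay at -3.82 ± 0.67 (SD, n = 5) and differed from uncovered wounds by -0.86 (SE 0.35, limma adjusted p = 0.0889).

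Both probes of contig R4.sd.791.C1 came up from background. UF_Ocu_AF_109680 ran from -9.12 to -8.10 at day 0 (median -8.46) and from -4.58 to -3.04 at day 3 (median -3.39). It was well above background on no day 0 array and all day 3 arrays, at least 9.60-fold higher (limma adjusted p = 4.16e-09). UF_Ocu_AF_109679 was at least 4.30-fold higher (limma adjusted p = 2.47e-08). UF_Ocu_AF_109680 was 1.25 lower under cover (limma adjusted p = 0.0423), while the difference of -1.09 for UF_Ocu_AF_109679 did not pass the test (limma adjusted p = 0.0814).

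UF_Ocu_AF_106306 of contig R4.sd.344.C1 and UF_Ocu_AF_113548 of contig R4.sd.254.C1 were well above background on 2 of 6 and 3 of 6 day 0 arrays. The first ran from -7.96 to -5.71 at day 0 (median -6.80) and from -4.39 to -3.01 at day 3 (median -3.13), or 8.34-fold with day 0 arrays set as described (limma adjusted p = 4.16e-09). The second ran from -6.69 to -5.54 at day 0 (median -6.13) and from -4.45 to -2.36 at day 3 (median -2.65), or 7.86-fold (limma adjusted p = 4.26e-08). Neither overlapped between the groups. Both lay near unwounded skin at day 3, with differences of -0.53 (95% interval -1.36 to 0.30) and -0.06 (-0.95 to 0.83). UF_Ocu_UN_118236 of clone nag23e03.x1, 3 of 6 at day 0, was more variable, at 7.97-fold (limma adjusted p = 0.00118).

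A pair of probes at background at day 0 ended lower without cover than with it. They are printed because the arm with the larger rise was the covered one.
UF_Ocu_UN_118492: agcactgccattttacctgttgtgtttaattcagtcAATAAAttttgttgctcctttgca
UF_Ocu_AF_101997: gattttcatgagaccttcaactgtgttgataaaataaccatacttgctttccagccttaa
UF_Ocu_UN_118492, of contig R4.3271.C1, ran from -9.55 to -8.62 at day 0 (median -8.72) and from -5.71 to -3.65 at day 3 (median -4.18). All day 3 arrays and no day 0 array were well above background, and day 3 was at least 5.74-fold higher (limma adjusted p = 4.16e-09). Covered wounds were 1.38 above uncovered wounds (SE 0.38, limma adjusted p = 0.0134).
UF_Ocu_AF_101997, of contig R4.4136.C2, ran from -8.53 to -7.36 at day 0 (median -8.10) and from -5.42 to -3.94 at day 3 (median -4.61), at least 4.60-fold higher (limma adjusted p = 4.16e-09). Its detection was the same, 0 of 6 and 6 of 6. Covered wounds were 1.80 higher than uncovered wounds (SE 0.29, limma adjusted p = 0.000108), and the partner UF_Ocu_AF_101996 was 1.70 higher there (limma adjusted p = 0.000437). Unwounded skin lay at -3.75 ± 0.01 (SD, n = 2).

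The 3 falls of at least 8-fold were UF_Ocu_AF_102002 and UF_Ocu_AF_102003, both of contig R4.sd.182.C1, and UF_Ocu_UN_116146 of contig R4.3696.C2. UF_Ocu_UN_115721, of the similarly named contig R4.3696.C1, followed in size. The falls printed here are these and UF_Ocu_AF_103234, for which the difference between the arms at day 3 did not pass the test.
UF_Ocu_AF_102002: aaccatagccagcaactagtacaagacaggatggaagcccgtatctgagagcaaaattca
UF_Ocu_AF_102003: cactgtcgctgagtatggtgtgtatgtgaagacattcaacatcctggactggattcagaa
UF_Ocu_UN_116146: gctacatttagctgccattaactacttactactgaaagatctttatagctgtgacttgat
UF_Ocu_UN_115721: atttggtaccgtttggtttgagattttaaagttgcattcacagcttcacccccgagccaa
UF_Ocu_AF_103234: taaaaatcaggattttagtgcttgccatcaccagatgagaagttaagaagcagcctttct

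UF_Ocu_AF_102002 ran from 3.13 to 4.12 at day 0 (median 3.39) and from -0.56 to 0.15 at day 3 (median -0.22). Both groups were tight and far apart. It fell by 3.68 on the log2 scale (SE 0.42, limma adjusted p = 2.14e-07), or 12.8-fold. UF_Ocu_AF_102003 fell by 3.58 (SE 0.45, limma adjusted p = 7.21e-07). Covered wounds at day 3 lay at 0.15 ± 0.92 (SD, n = 5), a difference of 0.34 between the arms (SE 0.44, limma adjusted p = 0.694). Unwounded skin lay at 0.59 ± 1.20 (SD, n = 2), and its 95% interval of day 3 minus unwounded ran from -2.01 to 0.44.

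UF_Ocu_UN_116146 ran from -3.02 to -0.73 at day 0 (median -2.20) and from -5.37 to -4.81 at day 3 (median -5.14). UF_Ocu_UN_115721 ran from -1.60 to 0.74 (median -1.05) and from -3.94 to -3.32 (median -3.59). In both probes the day 0 arrays were spread and the day 3 arrays close together, with no overlap. The log2 changes were -3.09 (SE 0.36, limma adjusted p = 2.23e-07) and -2.90 (SE 0.38, limma adjusted p = 1.05e-06). A further probe of R4.3696.C2, UF_Ocu_UN_116142, was well above background on 2 of 6 day 0 arrays and none at day 3. It was called lower (limma adjusted p = 0.000157), and with arrays at background set as described its ratio was at least 1.04-fold.

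UF_Ocu_AF_109290 of clone nbc02f08.y1 ran from -2.04 to -0.88 at day 0 (median -1.36) and from -4.81 to -3.21 at day 3 (median -4.26), without overlap. It fell by 2.69 (SE 0.28, limma adjusted p = 6.36e-08) and by a further 1.81 to day 5 (limma adjusted p = 1.64e-05), where 1 of 6 arrays was well above background. UF_Ocu_AF_105704, of contig R4.167.C2, ran from 0.65 to 2.65 at day 0 (median 1.36) and from -2.02 to 0.69 at day 3 (median -1.66). Its highest day 3 array just overlapped the lowest day 0 array. It fell by 2.68 (SE 0.51, limma adjusted p = 0.000178) and its partner UF_Ocu_AF_105705 by 1.21 (SE 0.23, limma adjusted p = 0.00016).

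Smaller falls with a small spread were named for their low p-values. UF_Ocu_AF_103234, of contig R4.593.C1, ran from 1.86 to 2.41 at day 0 (median 2.07) and from -0.31 to 0.92 at day 3 (median -0.02). The groups were separate, and it fell by 1.95 (SE 0.17, limma adjusted p = 1.15e-08). Its partner UF_Ocu_AF_103233 fell by 1.84 (SE 0.18, limma adjusted p = 3.16e-08). UF_Ocu_AF_103585 of contig R4.4381.C1 fell by 1.35 (SE 0.12), UF_Ocu_AF_113010 of clone nbc07c04.y1 by 1.52 (SE 0.14) and UF_Ocu_AF_109960 of contig R4.2103.C1 by 1.15 (SE 0.11). In all 3 the arrays of the groups did not overlap, and the limma adjusted p ran from 1.92e-08 to 2.51e-08. These probes and UF_Ocu_AF_103234 ended within 0.30 of unwounded skin, differences that did not pass the test, with the widest unadjusted 95% interval from -0.31 to 0.67. The second probe of contig R4.2103.C1, UF_Ocu_AF_109959, fell by 1.22 (limma adjusted p = 3.66e-06) and ended 0.72 below unwounded skin (limma adjusted p = 0.049). It rose again by 1.02 to day 5 (limma adjusted p = 5.15e-05). UF_Ocu_UN_118953 of contig R4.1929.C1 fell by 1.44 (SE 0.13, limma adjusted p = 1.92e-08) and rose again by 0.64 to day 5 (limma adjusted p = 0.000387).

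Several falls left a level above that of unwounded skin. These probes are printed because they fell in open air and lay lower still in covered wounds.
UF_Ocu_AF_112455: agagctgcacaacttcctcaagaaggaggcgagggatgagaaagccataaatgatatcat
UF_Ocu_AF_103881: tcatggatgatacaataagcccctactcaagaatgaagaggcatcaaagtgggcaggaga
UF_Ocu_AF_104471: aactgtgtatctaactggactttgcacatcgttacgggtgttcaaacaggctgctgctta
UF_Ocu_AF_112455, of contig R4.sd.767.C1, ran from 3.87 to 4.67 at day 0 (median 4.30) and from 1.02 to 3.16 at day 3 (median 1.80). No arrays overlapped, and it fell by 2.37 (SE 0.55, limma adjusted p = 0.00111). It stayed 5.97 above unwounded skin (SE 0.77, limma adjusted p = 6.06e-06), while covered minus uncovered wounds gave -6.06 (SE 0.57, limma adjusted p = 1.53e-08). The second probe of the contig, UF_Ocu_AF_112456, had a change of -0.72 (SE 0.45, limma adjusted p = 0.225) with overlapping arrays, so the contig's fall rests on 1 probe.

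UF_Ocu_AF_103881, of contig R4.1086.C1, ran from -0.29 to 0.98 at day 0 (median 0.19) and from -2.74 to -1.06 at day 3 (median -2.45). The groups were apart, with a fall of 2.32 (SE 0.27, limma adjusted p = 2.89e-07), and UF_Ocu_AF_103880 fell by 2.04 (SE 0.23, limma adjusted p = 1.39e-07). The arms differed by -1.97 (SE 0.29, limma adjusted p = 2.06e-05), and uncovered wounds stayed 1.92 above unwounded skin (limma adjusted p = 0.00144). A further fall of 1.06 followed to day 5 (limma adjusted p = 0.00314). UF_Ocu_UN_118063 ran from -1.87 to -1.29 at day 0 (median -1.67) and from -5.15 to -2.52 at day 3 (median -4.07), a fall of 2.32 (SE 0.33, limma adjusted p = 3.68e-06) without overlap. It lay 1.23 lower under cover (limma adjusted p = 0.0145), but within 0.14 of unwounded skin (95% interval -0.81 to 1.09).

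UF_Ocu_AF_104471, of contig R4.sd.1006.C1, ran from -1.25 to 1.64 at day 0 (median -0.73) and from -2.69 to -1.80 at day 3 (median -2.56). The groups did not overlap, and it fell by 2.23 (SE 0.45, limma adjusted p = 0.000276). UF_Ocu_AF_104470 fell by 1.92 (SE 0.43, limma adjusted p = 0.000774). UF_Ocu_AF_104471 was well above background on no covered array at day 3 and neither unwounded array, and uncovered wounds were at least 21.4-fold and at least 18.6-fold higher than these (limma adjusted p = 2.01e-09 and 8.18e-08). Contig R4.sd.768.C1 also lay far lower under cover at day 3, with a difference of -6.86 for UF_Ocu_AF_101829 (limma adjusted p = 5.95e-07), but its changes without cover did not pass the test. UF_Ocu_AF_101829 changed by -1.83 (95% interval -3.38 to -0.27, limma adjusted p = 0.0614) and UF_Ocu_AF_101828 by -1.16 (-2.48 to 0.17, limma adjusted p = 0.177). Both passed it with slide as a fixed block, at -2.33 (limma adjusted p = 0.0163) and -1.61 (limma adjusted p = 0.0455). They also passed in a fit of the 12 arrays alone, with unchanged log2 changes (limma adjusted p = 0.00354 and 0.011). The authors' deposited values gave limma adjusted p = 0.000893 and 0.0146. Both passed as well after quantile normalization, whether or not normexp came first. The first also passed with slide as a random block (limma adjusted p = 0.0137) and with scan day as a block (limma adjusted p = 0.0213). Its arrays did not overlap between the groups, whereas those of the second did. Under 26 alternatives the main result held in 16 for the first and in 21 for the second.

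**Figure D4:**
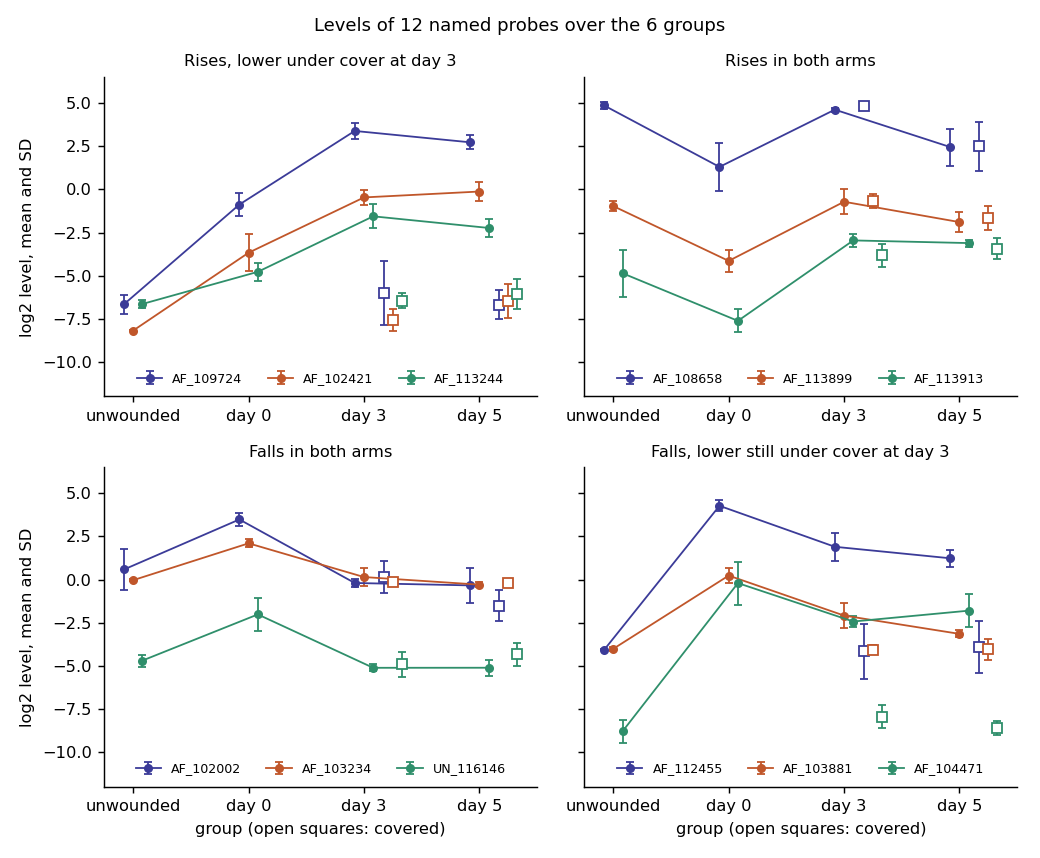
Mean log2 level and SD of 12 named probes in unwounded skin (2 arrays), at day 0 (6) and in uncovered wounds at day 3 and day 5 (6 each, filled circles joined by lines), with covered wounds (5 each) as open squares; names lack the prefix UF_Ocu_. In the upper left panel the uncovered means rise from day 0 to day 3 while covered means lie between -7.58 and -6.02, and in the lower right panel the covered means lie below the uncovered means on both days.

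Falls to the edge of detection were led by UF_Ocu_UN_123117, of clone nbc38h06.x1. It ran from -4.50 to -2.65 at day 0 (median -3.79) and from -7.09 to -5.55 at day 3 (median -6.38), with 2 of 6 day 3 arrays well above background and no overlap. Uncovered wounds at day 3 were 5.79-fold lower with arrays at background set as described (limma adjusted p = 2.17e-08), and the level rose again by 1.00 to day 5 (limma adjusted p = 0.0024). UF_Ocu_AF_106731 of contig R4.sd.820.C1 and UF_Ocu_AF_110193 of contig R4.703.C1, each 3 of 6 at day 3, fell 4.12-fold and 4.00-fold in the same way (limma adjusted p = 1.3e-05 and 1.76e-06). Their partners UF_Ocu_AF_106730 and UF_Ocu_AF_110192, detected on all 12 arrays, fell by 1.96 and 1.59 on the log2 scale (limma adjusted p = 1.09e-06 and 7.21e-06). UF_Ocu_UN_116443 of contig R4.4828.C1, 3 of 6 at day 3, fell 4.23-fold in the same way (limma adjusted p = 0.00706), and its partner UF_Ocu_UN_120846 was not called. With array weights the call was lost (limma adjusted p = 0.0594). UF_Ocu_AF_101198, 2 of 6 at day 3, fell 3.98-fold in the same way, with overlapping arrays (limma adjusted p = 0.00017).

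Of the 44 named probes 41 were called, 21 rises and 20 falls, and for 39 of the 41 the 12 arrays did not overlap between the groups. They were named for this change, so these counts describe the choice. The named probes were chosen on the same day 3 arrays that enter the comparisons with other groups, and nothing is read from how many passed those. For reference, 21 of the 44 differed between covered and uncovered wounds at day 3 (16.3% of all tested probes did), 16 between uncovered day 3 and unwounded skin (13.7%) and 15 between uncovered day 5 and day 3 (44.8%).

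The change was also read probe against probe within a contig. Of 4228 contigs with a pair of tested probes of the design class marked AF, both probes were called for 1492, and for 1489 of these in the same direction. The changes of the paired probes differed by a median of 0.09 on the log2 scale and correlated with r = 0.918 across contigs, as a description of probes read on the same arrays. Pairs of the class marked UN matched less closely. Of 419 such contigs both probes were called for 38, of which 35 in the same direction, with a median difference of 0.33 and r = 0.209. Some UN pairs hold long stretches that are reverse complements of each other, as UF_Ocu_UN_121885 and UF_Ocu_UN_122269 do. Such pairs read opposite strands, and how many there are was not counted. What the class letters stand for is not given in the sources used here. In the 40 contigs of the called named probes, 31 further probes were tested, of which 26 were called in the same direction, none in the opposite direction and 5 not called. Among these 26, UF_Ocu_UN_120979 holds a long stretch that is the reverse complement of the named probe UF_Ocu_UN_118063. Their falls were thus read on opposite strands, and the partner is not a second reading of the same transcript.

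**Figure D5:**
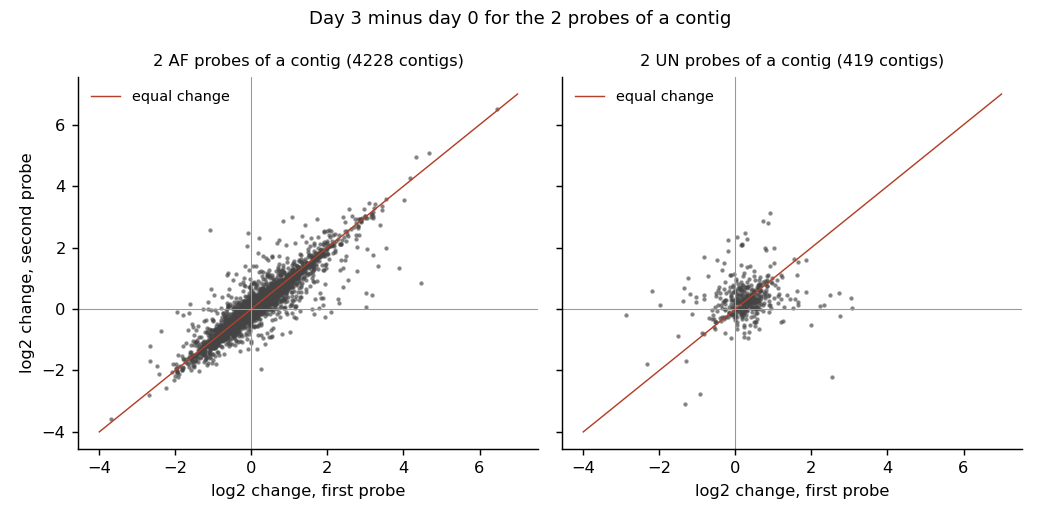
Each point is a contig with a pair of tested probes, with the log2 change from day 0 to day 3 of the first probe on the horizontal and of the second probe on the vertical axis; the red line marks equal changes. The 4228 contigs with AF probes follow the line (r = 0.918), and the 419 contigs with UN probes scatter around it (r = 0.209).

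Probes of some contigs gave different results. The sequences of the clearest cases are printed so that the probes can be compared, the first pair being called in opposite directions.
UF_Ocu_AF_102071: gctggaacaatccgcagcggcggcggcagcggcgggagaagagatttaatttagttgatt
UF_Ocu_AF_102070: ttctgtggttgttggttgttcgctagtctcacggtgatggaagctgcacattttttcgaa
UF_Ocu_AM_114848: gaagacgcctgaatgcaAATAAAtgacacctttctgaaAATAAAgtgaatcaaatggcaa
UF_Ocu_AF_100941: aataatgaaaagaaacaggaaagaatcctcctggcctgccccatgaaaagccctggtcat
UF_Ocu_AF_102071 ran from -1.01 to 1.02 at day 0 (median 0.43) and from 1.07 to 3.67 at day 3 (median 3.09), without overlap, and rose by 2.56 (SE 0.36, limma adjusted p = 3.63e-06). UF_Ocu_AF_102070, of the same array entry, ran from -3.91 to -3.18 (median -3.67) and from -5.59 to -3.84 (median -4.74), with overlap, and fell by 1.08 (SE 0.26, limma adjusted p = 0.00147). The other opposed AF pairs were UF_Ocu_AF_104018 and UF_Ocu_AF_104019 (changes 1.01 and -0.75) and UF_Ocu_AF_112931 and UF_Ocu_AF_112932 (0.51 and -0.70). All were named here after their values were seen.

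UF_Ocu_AM_114848, of contig R4.1364.C1, belongs to a small class whose entries in the array files are marked with a minus. It ran from -3.38 to -2.84 at day 0 (median -3.02) and from -2.02 to -1.25 at day 3 (median -1.60). The groups were apart, with a rise of 1.47 (SE 0.13, limma adjusted p = 1.32e-08). The AF probe of that contig, UF_Ocu_AF_100941, changed by 0.14 (SE 0.46, 95% interval -0.80 to 1.08, limma adjusted p = 0.848). Likewise UF_Ocu_AF_109913 of contig R4.3959.C1 came up from background (0 of 6 to 6 of 6, at least 2.21-fold, limma adjusted p = 1.5e-08) while UF_Ocu_AF_109914 changed by 0.19 (limma adjusted p = 0.725). UF_Ocu_UN_117099 of contig R4.1998.C1 fell by 2.19 (SE 0.27, limma adjusted p = 6.99e-07) while UF_Ocu_UN_120683 changed by 0.58 (limma adjusted p = 0.114).

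Contig names that share a stem were followed as groups, 14 with at least 3 contigs and 6 tested probes. Of the 14, 12 held at least 1 called rise, 1 a called fall and 1, R4.240 with 9 probes, no call. Over all tested probes 20.5% rose and 15.1% fell. Those are shares of single probes, and a group of 6 or more probes holds a call more often than a single probe does. Nothing is therefore read from the number of groups. The groups named here were chosen after their values were seen. In the R4.sd.425 group all 6 probes of 3 contigs rose, by 1.77 to 2.04. Contigs R4.sd.425.C11 and R4.sd.425.C3 are not separate readings. UF_Ocu_AF_105628 shares a run of 55 bases with UF_Ocu_AF_112906, and UF_Ocu_AF_105629 one of 49 bases with UF_Ocu_AF_112907. The probes of R4.sd.425.C10 share runs of at most 9 bases with any probe of the group. UF_Ocu_AF_105628 ran from -5.61 to -3.58 at day 0 (median -4.71) and from -3.64 to -1.96 at day 3 (median -2.73). The arrays of day 0 and day 3 just overlapped (log2 change 1.92, SE 0.34, limma adjusted p = 6.16e-05). In the R4.sd.199 group 17 of 19 probes of 14 contigs were called higher, but 18 of the 19 were well above background on no day 0 array. Of these, 8 were at background on all 12 arrays, 6 of them called, so their calls compare signals without a measured level and no size is given. The exception, UF_Ocu_AF_105638, ran from -3.58 to -2.98 (median -3.25) to between -1.11 and 1.03 (median -0.12), a rise of 3.10 (SE 0.43, limma adjusted p = 2.95e-06). It shared runs of at most 8 bases with the other 18 probes. Several of those 18 share long runs with each other, as UF_Ocu_AF_110884 and UF_Ocu_AF_105825 do, so they are not separate readings. In the R4.1151 group 4 of 6 probes fell, with a median of -0.75. In the bright R4Sub.9 group 5 of 12 rose, with a median of 0.35 against 0.13 for all tested probes. The largest group median was that of R4Sub.3, at 2.29, with 7 of 10 probes called higher. Only 1 of these 10 was well above background on all 12 arrays, and UF_Ocu_UN_116632 and UF_Ocu_UN_118107 have the same sequence.

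The probe sequences themselves differed a little between the called sets. AATAAA was present in 7.81% of all 23369 probes, in 10.6% of the tested probes, in 16.2% of those that rose and in 11.1% of those that fell. Its reverse complement TTTATT was present in 4.32% of tested probes, 4.97% of those that rose and 4.18% of those that fell. Each probe was searched as printed, on its own strand. The median GC content was 41.7% for probes that rose and for those that fell, and 45.0% over all tested probes. None of the 76 named and partner probes shared 20 or more bases with a tested probe of another contig. These are descriptions of probe design, in which several probes share a contig, and no test was run on them.

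A pair of probes of clone naf04e10.x1 changed by a large amount with a wide spread; they are described here after their values were seen. UF_Ocu_AF_112225 (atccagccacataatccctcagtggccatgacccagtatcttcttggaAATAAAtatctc) ran from -8.95 to -0.99 at day 0 (median -8.10) and from -6.64 to 0.83 at day 3 (median 0.60). At day 0, 1 of 6 arrays was well above background, and at day 3, 5 of 6. The groups overlapped, and with arrays at background set as described day 3 was 37.5-fold higher (limma adjusted p = 0.00104). UF_Ocu_AF_112226, with the same detection, was 25.2-fold higher (limma adjusted p = 0.00223). UF_Ocu_AF_107910 of clone nag38c02.y1 (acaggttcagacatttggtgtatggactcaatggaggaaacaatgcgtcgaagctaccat) also varied. It ran from -9.20 to -3.05 at day 0, where 2 of 6 arrays were well above background, and from -9.27 to -8.31 at day 3, where none was. The change was not called (limma adjusted p = 0.279).

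The changes were also read within slides. A fit that took slide as a block called 5067 probes. The 12 arrays lay on 8 slides, of which 4 held an array of each group. Probes were called again with each of these slides left out. Of those calls, 97.7% had the same direction on slide 7, 95.2% on slide 10, 82.1% on slide 11 and 82.3% on slide 2. The named probes were chosen on all 12 arrays, these slides included, so their values within slides are a description. UF_Ocu_AF_109724 rose by 4.20, 5.10, 5.42 and 3.77 on them, and UF_Ocu_AF_102002 had changes of -3.36, -4.30, -3.29 and -3.93. UF_Ocu_AF_108658 was less even, at 3.52, 4.40, 0.49 and 4.32, the lowest on the slide with the high day 0 array.

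Single day 3 arrays differed in how far they had moved. Over the probes that rose at least 2-fold, the median distance of each array from the day 0 mean ran from 1.15 in replicate 5 to 1.72 in replicate 2. Over those that fell at least 2-fold it ran from -1.62 in replicate 4 to -0.79 in replicate 6. The day 0 arrays lay between -0.34 and 0.23 on the first measure and between -0.27 and 0.28 on the second, so each day 3 array lay outside the day 0 range on both. These probes were chosen on the same arrays, and the values are a description.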

How the data were processed

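The deposited array files hold Cy3 intensity values of 1-colour arrays, made with Agilent Feature Extraction 10.1.1.1, which subtracted background and detrended each array, per the file headers. The authors' deposited value table holds linear intensity on the same probes (r 0.969 to 0.983 with the scanner values on the log2 scale, column medians 288 to 293). How that table was normalized is unknown here. Limma is named in the submitters' processing notes.

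Control spots and outlier flags were left out, signals were taken to log2, and the log2 signals of the spots of a probe were averaged. From these each array's 75th percentile was subtracted, taken over 7446 probes that the scanner flagged as detected on every array. Of 23369 probes, 12342 had that flag on at least 2 arrays and were tested with limma 3.58.1 (R 4.3.3) in 1 fit over all 30 arrays, without a block, with Benjamini-Hochberg adjustment and a threshold of 0.05. A missing value on the 12 arrays occurred in 52 tested probes, which were fitted on the arrays left. The fit was tested on simulated data.

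Named probes were the 10 largest rises and 10 largest falls among called probes detected on all 12 arrays, the 5 rises and 5 falls with the largest ratio among those detected on all 6 arrays of 1 group and at most 3 of the other (both at most 1 per contig), the 5 further rises and falls with the smallest p, and 5 probes known from an earlier analysis. The probes and lists were chosen with earlier results of these data known. Gene lists and marker lists were not used here, since the probes carry no gene names. Alternatives covered scaling, background correction, filter, slide, scan day and replicate block, array weights, outlier spots, the 12 arrays alone and leaving out each array.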

Additional observations from a re-analysis of the deposited data

Results flagged for a closer look

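In 3 of 88 groups of 6 arrays examined, 1 array lay far from the other 5 by Dixon's criterion, where chance flags about 1 in 20, or 4.4. Day 0 replicate 4 was high for UF_Ocu_AF_108658, at 3.98. Day 0 replicate 6 was low for UF_Ocu_UN_118492, at -9.55, a signal at background. Day 3 replicate 5 was high for UF_Ocu_UN_118953, at -5.11.

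Of the 21 named probes that differed between covered and uncovered wounds at day 3, 15 belong to those named for the largest changes or known from an earlier analysis. In these the change from day 0 to day 3 differed between the arms, by limma's test of covered minus uncovered wounds, which share the day 0 arrays. Among the rises the difference was -9.41 for UF_Ocu_AF_109724, -9.26 for UF_Ocu_AF_109723, -7.11 for UF_Ocu_AF_102421 and -4.89 for UF_Ocu_AF_113244. It was -1.60 for UF_Ocu_AF_113897, -1.46 for UF_Ocu_AF_104104, -1.29 for UF_Ocu_AF_103249 and -1.23 for UF_Ocu_AF_104437. Among the probes that were lower at day 3 it was -6.86 for UF_Ocu_AF_101829, -6.67 for UF_Ocu_AF_101828, -6.06 for UF_Ocu_AF_112455 and -5.51 for UF_Ocu_AF_104471. It was -1.97 for UF_Ocu_AF_103881, -1.65 for UF_Ocu_UN_117099 and -1.23 for UF_Ocu_UN_118063. The other 6 were UF_Ocu_AF_106731 (-1.42), UF_Ocu_AF_109680 (-1.25), UF_Ocu_AF_108097 (-0.98) and UF_Ocu_AF_109960 (-0.41), and, higher under cover, UF_Ocu_AF_101997 (1.80) and UF_Ocu_UN_118492 (1.38). Where covered arrays were at background these fitted values depend on signals without a measured level.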

How the results depend on the processing

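The number of called probes stayed within 1.5 times of 4402 under the alternatives run, from 3433 with only probes detected on all 12 arrays to 6111 with array weights, and from 3901 to 4707 when 1 array was left out. The share of rises among calls (57.6%) turned to 42.3% with the percentile over all probes, 45.8% with quantile normalization, 46.2% with normexp and 45.9% in the authors' values, and ran from 55.2% to 58.9% without 1 array. The median change of all tested probes turned to -0.041, -0.035, -0.019 and -0.015 under these 4 scalings. Rises of at least 2-fold numbered 576 with normexp, 491 in the authors' values and 676 with only probes detected on all 12 arrays. Falls of at least 2-fold numbered 927 with the percentile over all probes, 342 in the authors' values, 385 with only probes detected on all 12 arrays and 913 with array weights. Probes with a 95% interval within 2-fold numbered 9419 with normexp, 9917 in the authors' values and 11007 without a filter. With array weights 8 named probes differed from unwounded skin, against 16. The causes were not tested. Of 1130 values of named probes under alternatives, 1114 kept the direction and the side of the threshold, 15 passed it newly (UF_Ocu_AF_101829 and UF_Ocu_AF_101828, -2.33 for the first with slide as a fixed block) and 1 no longer passed it (UF_Ocu_UN_116443, -2.25 with array weights). With the replicate block 4399 probes were called. The replicate numbers were not taken as pairs, since same-numbered arrays had r from -0.10 to 0.50 in their deviations, above 0.1 in 3 of 6 pairs, and 2 of 12 arrays correlated best with their own number. Without the arrays of slide 6, an alternative chosen after seeing the data, 4926 were called. Signal over background limits probes with a mean level up to -6.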
